A study of Mus musculus with 6 samples.

Results

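The regions described here are 480 long, unbroken stretches of chromatin states 9, 10 and 11 in a map of the mouse genome labelled as wild-type hematopoietic stem cell (HSC) H3.3. They were chosen by the state numbers of the map itself: touching segments of states 9 to 11 on chromosomes 1 to 19 were joined into runs, and runs of 30 kb or more were kept. Of 100845 such runs, 480 passed this length and 100365 were shorter. The 480 domains covered 21.92 Mb, which is 0.89% of the autosomal bases and 6.01% of the bases in states 9 to 11. Their lengths and states are therefore descriptions of the choice and were not tested.

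The study profiled the histone variant H3.3 by ChIP-seq in HSCs sorted from the bone marrow of C57BL/6 mice that were either WT or HIRA KO. HIRA is a chaperone that places H3.3 on chromatin outside DNA replication, and its gene was deleted conditionally in blood-forming cells. The 6 libraries were 2 H3.3 ChIPs and 1 input per genotype. All mice of all groups, WT included, had been injected with poly(I:C), an inducer of interferon, at 2 doses of 20 ug each, and HSCs were taken on day 7 counted from the first injection. The Cre line that responds to poly(I:C), the age of the mice and any pooling of animals were not given in the sources used here. Chromatin was cut with micrococcal nuclease and precipitated with a monoclonal H3.3 antibody raised in rat.

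What was analysed is 1 segmentation of the genome in bins of 200 bp into 18 numbered states. Only its file name ties it to the wild-type H3.3 group, and the tracks from which it was learned are not given. It has no replicates, no read counts and no knockout column, so every value below describes a single map, the depth is unknown and no comparison of WT with HIRA KO is made. It holds no transcript levels either, so the sorted cells could not be checked against HSC marker expression.

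Segmentation programs assign each bin the state that best accounts for its combination of chromatin signals, so that neighbouring bins with like signals form a segment. In many cell types the genes of transcription factors that direct the formation of other organs lie in broad silent domains held by Polycomb proteins, and such genes often keep CpG-rich promoters. Whether states 9 to 11 carry Polycomb marks cannot be read from a map without signal values, so they are called by number here.

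Several long domains held a miRNA gene, a gene for a short RNA that represses messenger RNAs. Of 1136 autosomal miRNA genes, 22 (1.94%) had an end in a long domain. They lay in 17 domains, and RefSeq (GRCm38.p6) gave mature sequences for 21 of these genes. This made 33 entries, in which a sequence shared by several genes is counted once for each. All 3 genes of miR-9, a miRNA abundant in the developing brain, were included. So were both genes of miR-196a and the gene of miR-10b, which lie in Hox clusters. In the lines that follow, capitals mark the seed (bases 2 to 8), the stretch that pairs with target RNAs, and the same miR-9-5p sequence is encoded by Mir9-1, Mir9-2 and Mir9-3.
mmu-miR-9-5p: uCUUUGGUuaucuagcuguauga
mmu-miR-9-3p: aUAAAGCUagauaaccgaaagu
mmu-miR-196a-5p: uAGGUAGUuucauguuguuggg
mmu-miR-10b-5p: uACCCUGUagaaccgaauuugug
mmu-miR-615-3p: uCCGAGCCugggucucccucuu
mmu-miR-375-5p: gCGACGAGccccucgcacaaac

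Each of the 3 Mir9 genes lay in a state 9 segment of its own long domain, and none of these domains held an end of a protein-coding gene. Mir9-1 (chr3:88215598-88215686) lay in a segment of 1.8 kb within a domain of 40.4 kb. Mir9-2 (chr13:83738814-83738885) lay in a segment of 1.4 kb within a domain of 43.4 kb. Mir9-3 (chr7:79505264-79505353) lay in a segment of 1.2 kb, the only state 9 in a domain of 102.4 kb. Records antisense to all 3 genes, Gm25641, Gm51268 and Gm51285, which RefSeq lists as miR-9b, overlap them in position and are no separate landmarks. Mir124a-3, a gene of another brain miRNA, was likewise in state 9, in a 2.2 kb segment of a 49.0 kb domain, whereas Mir124a-1 and Mir124a-2 were in state 11 in runs of 19.6 and 28.6 kb, below the length chosen. Among the other 10 miRNA genes, Mir3093 in the Mir9-1 domain was in state 9, and Mir1897 in the Sox2 domain was in state 11. These genes were picked after their states had been seen.

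The miRNA genes of the Hox clusters lay both inside and outside long domains. Mir196a-2 (chr15:102973350-102973434) and Mir615 (chr15:103014910-103015001) were in state 11 of the 184.8 kb HoxC domain, and Mir10b (chr2:74726070-74726137) was in state 11 of the 142.4 kb HoxD domain. Mir196a-1 of HoxB was in state 10 of a 55.6 kb domain. Their relatives outside the domains had other states: Mir196b beside Hoxa10 was in state 6, and Mir10a of HoxB was in state 17. Mir375, a miRNA of endocrine cells, was in state 11 of an 87.0 kb domain with the gene of the signalling protein Ihh.

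Promoters show how different the starts within these domains could be. In the next lines, 300 bases are printed per gene, from 250 before to 50 after the annotated start, read along the gene's strand, with CpG dinucleotides in capitals (RefSeq, GRCm38.p6). Twist2, a regulator of mesenchyme (window chr1:91801211-91801510, plus strand), starts in a state 9 segment. Hoxd13, which patterns the ends of limbs (window chr2:74667975-74668274, plus strand), and Drd2, a dopamine receptor gene (window chr9:49340153-49340452, plus strand), start in state 11. So does Krt13, a keratin gene of stratified epithelia (window chr11:100121517-100121816, minus strand).
Twist2: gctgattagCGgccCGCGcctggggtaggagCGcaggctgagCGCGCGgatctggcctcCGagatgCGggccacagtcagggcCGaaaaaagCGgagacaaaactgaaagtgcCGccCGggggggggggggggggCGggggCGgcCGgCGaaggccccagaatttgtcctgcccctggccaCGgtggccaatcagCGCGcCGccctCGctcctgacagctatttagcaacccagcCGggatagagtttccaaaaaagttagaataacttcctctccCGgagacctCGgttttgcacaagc
Hoxd13: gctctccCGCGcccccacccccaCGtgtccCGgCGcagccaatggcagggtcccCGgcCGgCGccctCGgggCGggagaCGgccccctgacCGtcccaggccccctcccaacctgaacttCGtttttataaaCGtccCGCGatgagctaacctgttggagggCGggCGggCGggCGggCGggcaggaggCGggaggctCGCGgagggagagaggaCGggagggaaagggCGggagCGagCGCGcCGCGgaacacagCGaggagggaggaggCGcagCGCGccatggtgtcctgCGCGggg
Drd2: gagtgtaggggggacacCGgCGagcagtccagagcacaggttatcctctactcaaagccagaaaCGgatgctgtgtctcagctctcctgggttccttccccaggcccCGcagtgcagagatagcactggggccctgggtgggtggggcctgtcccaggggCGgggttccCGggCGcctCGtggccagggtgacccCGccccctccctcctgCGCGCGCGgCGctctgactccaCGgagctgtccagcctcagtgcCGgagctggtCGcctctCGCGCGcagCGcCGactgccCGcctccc
Krt13: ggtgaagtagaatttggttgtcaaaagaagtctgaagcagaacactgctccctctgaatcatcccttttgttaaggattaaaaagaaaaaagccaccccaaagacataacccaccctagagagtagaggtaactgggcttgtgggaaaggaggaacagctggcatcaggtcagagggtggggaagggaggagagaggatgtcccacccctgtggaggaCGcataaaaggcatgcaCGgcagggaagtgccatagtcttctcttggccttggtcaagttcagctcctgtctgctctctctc

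The Twist2 window held 25 CpGs, with a GC content of 64.7% and a ratio of observed to expected CpGs of 0.803. That of Hoxd13 held 37 CpGs at a ratio of 0.904, although its start was in state 11 and not in state 9. The Drd2 window held 23 CpGs at a ratio of 0.621, in a 75.6 kb domain that was state 11 throughout. The Krt13 window held 2 CpGs at a ratio of 0.107, and its 63.2 kb domain was also state 11 throughout. A long domain of state 11 thus held a CpG-rich start in 1 case and a CpG-poor one in the other.

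The domains ranged from 30 to 184.8 kb with a median of 39.0 kb, against a median of 2.6 kb over all runs. There were 123 domains of 50 kb or more and 11 above 100 kb. State 11 made up 92.9% of their bases, state 10 5.2% and state 9 1.91%. In the runs below 30 kb the shares were 96.6%, 2.1% and 1.3%, and in runs of 10 to 30 kb they were 94.1%, 3.43% and 2.51%. State 9 was thus no larger a share of the long domains than of the runs of intermediate length. A piece of state 9 occurred in 192 domains (40.0%), a piece of state 10 in 375 (78.1%) and both in 183 (38.1%), and 96 (20.0%) were state 11 alone. A longer run can hold more pieces, so these counts are not compared between lengths.

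Within the domains, states 9 and 10 formed small islands in stretches of state 11. The 280 state 9 segments had a median of 1.4 kb and the 1218 state 10 segments a median of 0.6 kb, against 6.2 kb for the 1795 segments of state 11. The longest state 9 segment spanned 5.4 kb over ends of Hoxb8 and Hoxb7. The longest of state 10 spanned 6.4 kb between Hoxa11 and Hoxa13. The longest of state 11 spanned 93.8 kb on chromosome 4, with no protein-coding gene end in it. State 9 bordered state 11 on 74.6% of its inner sides and state 10 on 25.4%. The layout was alike in runs below 30 kb. There the medians were 1.4 kb for state 9 and 0.6 kb for state 10, and state 9 bordered state 11 on 72.2% of inner sides.

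**Figure D1:**
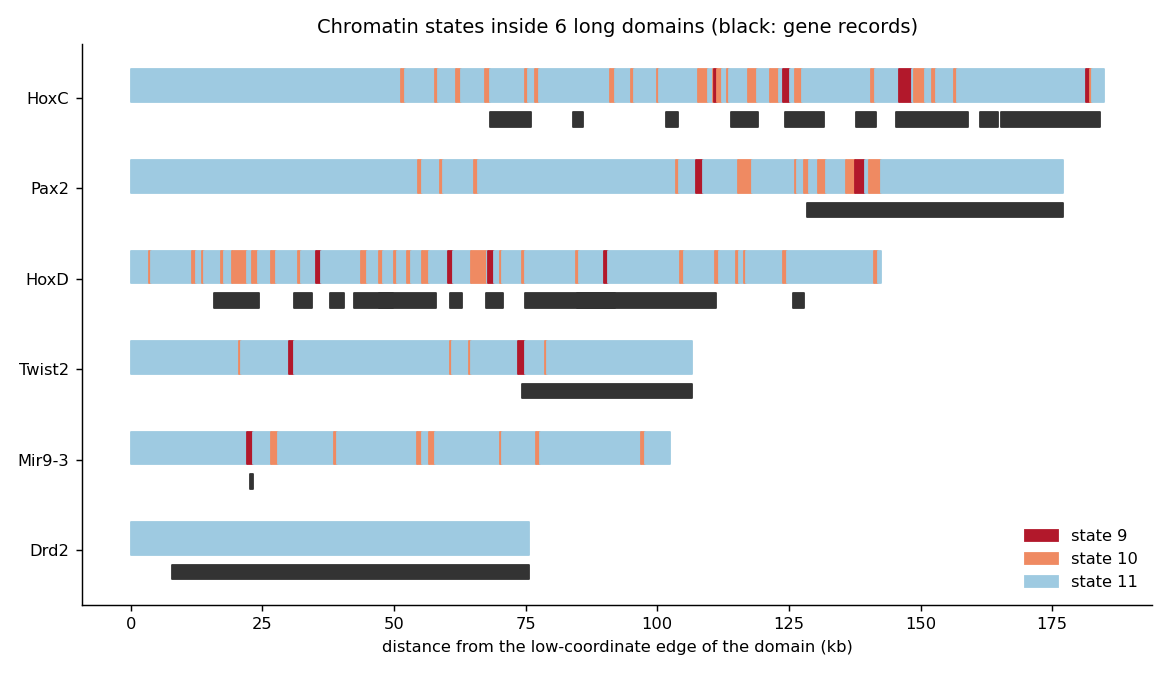
States along 6 long domains, with distance from the low-coordinate edge of each domain in kb on the x axis and 1 domain per row (HoxC 184.8 kb, Pax2 177.0 kb, HoxD 142.4 kb, Twist2 106.6 kb, Mir9-3 102.4 kb, Drd2 75.6 kb). Coloured blocks are the states and black bars gene records clipped to the domain: short pieces of states 9 and 10 break up state 11 in the first 5 rows, and the Drd2 domain shows state 11 alone.

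Protein-coding genes were sorted by whether either end of their record lay in a long domain. Of 20560 autosomal genes used, 381 (1.85%) did, 218 of them with both ends, and a further 4748 (23.1%) had an end in a shorter run only. Where the start of the gene was known from the RefSeq promoter table, 244 of 16457 starts (1.48%) were in a long domain. The domains fell into 4 kinds by the genes they met. Genes on fixed lists of developmental transcription factors had an end in 88 domains (18.3%), and other protein-coding genes in 188 (39.2%). A further 72 (15.0%) lay inside the record of a protein-coding gene without reaching its ends, and 132 (27.5%) lay outside protein-coding genes. The kinds rest on record ends alone. A domain inside a record can still hold a start from the promoter table, as 1 of 63.2 kb did for Vwa5b1. No coding gene end was found in 204 domains, 202 held an end of 1 gene, 50 of 2, and the HoxC and HoxD domains held ends of 9 and 10.

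Many genes of developmental transcription factors met long domains. Of 260 genes on 8 such lists, 113 (43.5%) had an end in a long domain, beside 1.85% of all protein-coding genes, and 107 more had an end in a shorter run. The lists were drawn up with earlier results of this map known, in which developmental regulators already stood in states 9 to 11, so the share describes their run length and is no independent support. The shares are given by family, without a test between families. The share was 77.8% for Pax factors (7 of 9), 66.7% for Hox genes (26 of 39) and 51.5% for other homeobox factors (52 of 101). It was 44.4% for Zic and Gli zinc fingers (4 of 9), 26.7% for T-box factors (4 of 15), 25.8% for bHLH factors (8 of 31), 22.2% for Sox factors (4 of 18) and 21.1% for forkhead factors (8 of 38). Most bHLH and T-box genes outside the long domains were in shorter runs of the same states, 20 and 9 genes. The order of the families depended on the settings. With both ends required, the Pax share was 33.3%, below 64.1% for Hox genes and 47.5% for other homeobox factors, and the T-box share was 6.67%, or 9.09% by start. At 50 kb or more, other homeobox factors were at 15.8% and forkhead factors at 2.63%.

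The Hox genes, which set position along the body axis, were divided by cluster. All 9 genes of HoxC lay in the longest domain of the map (chr15:102852801-103037600, 184.8 kb), which held 5.2 kb of state 9 in 4 pieces and 19.2 kb of state 10 in 21. All 9 genes of HoxD, together with their neighbour Evx2, lay in a domain of 142.4 kb (chr2:74637201-74779600), with 4.0 kb of state 9 and 20.6 kb of state 10. HoxB was split: Hoxb13 lay in a domain of 89.6 kb (chr11:96121001-96210600) without state 9, and Hoxb9, Hoxb8, Hoxb7 and Hoxb6 in one of 55.6 kb (chr11:96246201-96301800), while Hoxb5 to Hoxb1 were outside. In HoxA only the end with Hoxa10, Hoxa11 and Hoxa13 lay in a domain, of 43.4 kb (chr6:52235601-52279000), and the other 8 genes were outside.

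By the ends of their records, many HoxC and HoxD genes lay in state 11. Of these 18 genes, Hoxc9 and Hoxd9 had an end in state 9, Hoxd3, Hoxd4 and Hoxd8 had an end in state 10, and the other 13 had both record ends in state 11. Hoxb9, Hoxb8, Hoxb7 and Hoxb6 each had an end in state 9, and so had Hoxa10 and Hoxa13. Record ends mix starts with far ends, and the start in the promoter table can lie inside the record: it was in state 9 for Hoxc4, 1 of the 13, and in state 10 for Hoxb8.

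The share of states 9 and 10 varied among these domains. The 55.6 kb HoxB domain held 15.8 kb of state 9 and 11 kb of state 10, together 48.2% of its length, and the HoxA domain 44.7%. The Hoxb13 domain of 89.6 kb held 10.7%, all of it state 10. The HoxC and HoxD domains, which cover whole clusters, held 13.2% and 17.3%. The HoxA domain touched a state 5 segment at its low edge, and the far end of Hoxa10, outside the domain on that side, was also in state 5. States 3 to 6 began 1.2 kb from the 55.6 kb HoxB domain. HoxC and HoxD were 124.6 and 45.6 kb away from the nearest segment of states 3 to 6, the states at 8460 of 16452 gene starts with a promoter window.

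Among Pax genes, which specify organs and nerve tissue, Pax2 of the kidney and midbrain stood at the head. A domain of 177.0 kb (chr19:44618201-44795200) held its start, in state 10, and most of its length lay upstream. A second domain of 50.4 kb (chr19:44795601-44846000) held its far end, 0.4 kb further on. Pax7 and Pax3, both used by muscle precursors and the neural crest, had ends in domains of 76.2 and 58.2 kb, Pax6 of the eye in one of 55.0 kb, and Pax9 and Pax1 of the skeleton in domains of 39.8 and 34.6 kb. Pax5, the factor that commits cells to the B lineage, had its start in state 11 of a 51.6 kb domain (chr4:44675001-44726600). Pax4 and Pax8 had an end in state 11 of shorter runs.

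The other homeobox factors met 49 domains. Hmx1 of the ear and eye lay in 113.6 kb (chr5:35323801-35437400), En2 of the midbrain in 110.0 kb (chr5:28116001-28226000), Barhl2 of the retina in 79.2 kb, and Dlx5 with Dlx6, a pair acting in the jaw and forebrain, in 71.4 kb. Short domains also held neighbouring pairs: Dlx1 and Dlx2 lay in 32.6 kb, and Hmx3 and Hmx2 in 47.8 kb. At 45.4%, the Dlx1 and Dlx2 domain had the third highest share of states 9 and 10 together. All 6 Iroquois genes, which pattern the neural tube and heart, met a domain each: Irx2 one of 54.6 kb, Irx4 36 kb, Irx5 35.2 kb, Irx6 32 kb, Irx3 30.6 kb and Irx1 30 kb. The 3 Pou4f genes of sensory neurons did as well, Pou4f3 in 47.4 kb, Pou4f2 in 38.2 kb and Pou4f1 in 31.4 kb. These sets were singled out after their values were seen, and several of the domains were close to the chosen length. Others above 50 kb were those of Vax2 (68.0 kb), Pou3f3 (64.4 kb), En1 (57.2 kb), Tlx1 (56.6 kb), Uncx (53.4 kb), Lhx2 (52.8 kb), Msx1 (52.2 kb), Nkx2-5 (51.6 kb) and Emx2 (50.8 kb). Alx1, a factor of the face, had ends in states 10 and 11 but in runs below 30 kb.

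Members of the smaller families showed the same range of layouts. The neural factor Sox1 lay in 70.4 kb with its start in state 9, while Sox2, needed for neural and pluripotent cells, lay in 56.8 kb with its start in state 11. Zic1 and Zic4 of the cerebellum shared 88.2 kb, and Zic2 and Zic5 36.6 kb. Tbx5 of the heart and forelimb had an end in a domain of 101.4 kb, and Tbx3 in one of 71.0 kb. Foxf1 of the lung and gut mesenchyme lay in 58.2 kb and the endoderm factors Foxa1 and Foxa2 in 43.6 and 42.2 kb. Of the bHLH factors, Hand2 of the heart lay in 62.6 kb, Neurod2 of neurons in 58.2 kb, and Myod1 of skeletal muscle in 44.6 kb with 0.8 kb of state 10 and no state 9. Further members lay in shorter domains: Twist1, Ptf1a, Neurog1, Neurog2 and Olig2 in 30 to 39.0 kb, Foxb1, Foxd3, Foxd1 and Foxl2 in 32.2 to 43.6 kb, and Sox21 and Sox14 in 32.6 and 31.6 kb. Foxa3, a liver factor, had both ends in state 6, outside all runs of states 9 to 11.

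**Figure D2:**
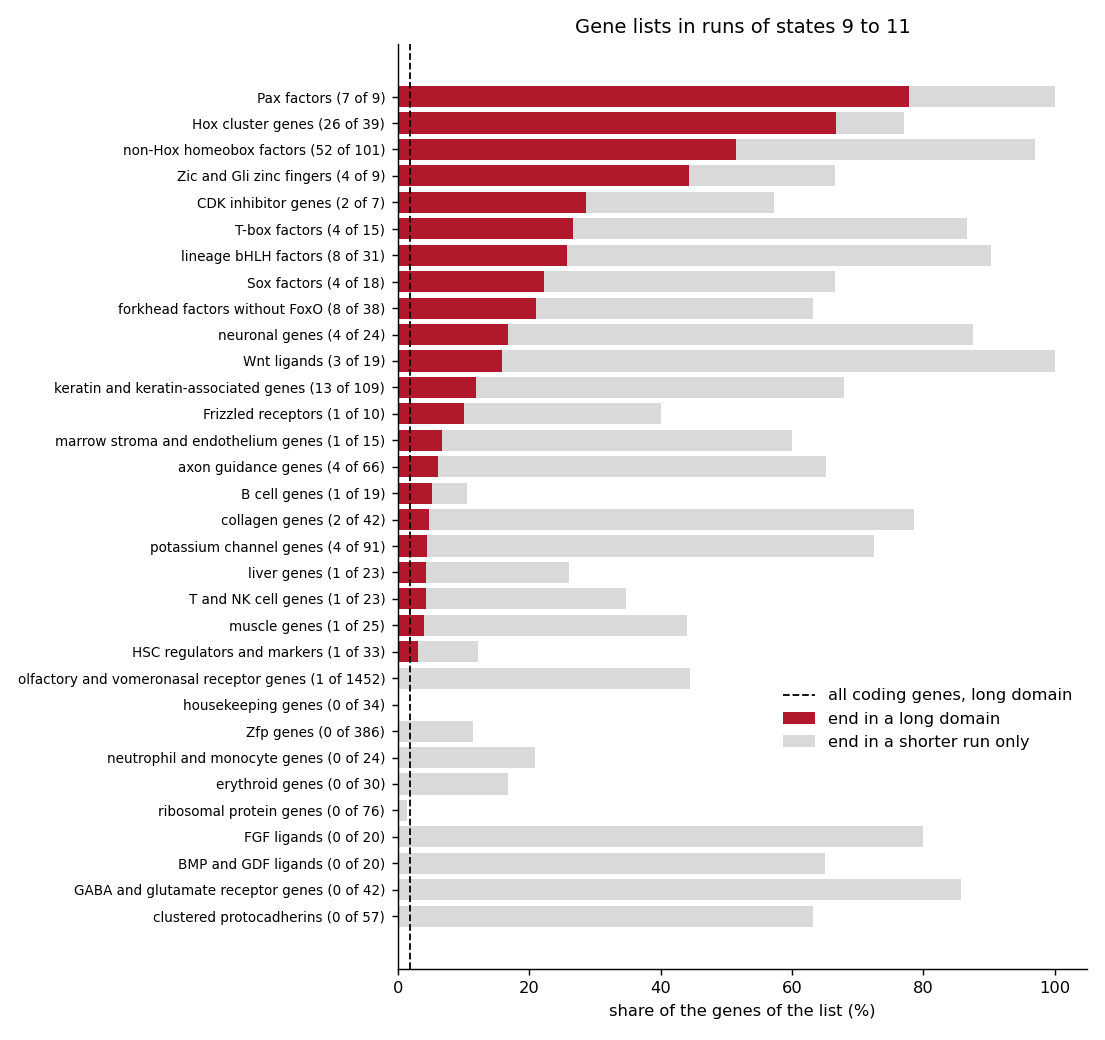
Share of the genes of each list, in percent on the x axis, with an end in a long domain (red) or in a shorter run only (grey), for 32 lists with the counts in the labels; the dashed line marks 1.85%, the share of all protein-coding genes. Pax, Hox and homeobox lists have the longest red bars, while FGF, BMP, receptor and protocadherin lists are mostly grey.

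For other gene groups, the counts are read beside the 1.85% of all protein-coding genes with an end in a long domain and the 23.1% with an end in a shorter run only. Of 19 genes of Wnt ligands, secreted signals of development, 3 (15.8%) had an end in a long domain and the other 16 in a shorter run. Wnt10a and Wnt6 met the same domain of 48.6 kb, and Wnt3 one of 32 kb. Of 20 FGF and 20 BMP and GDF ligand genes, 0 had an end in a long domain and 16 and 13 in a shorter run. Of 42 genes of GABA and glutamate receptors 0 were in long domains and 36 in shorter runs, and of 57 clustered protocadherins 0 and 36. In lists of this size a count of 0 is near the share of all genes, and it changed with the choice of runs. At 20 kb or more the receptor share was 14.3% and the protocadherin share 7.02%, and with gaps of up to 1000 bp bridged they were 16.7% and 19.3%, beside 3.54% and 3.2% of all genes. Potassium channel genes had 4 of 91 in long domains (4.4%), among them Kcna1 in 40.2 kb, and 62 in shorter runs. Axon guidance genes had 4 of 66 (6.06%): Epha8, Ntn1, Epha10 and Unc5a, in domains of 86.0, 39.4, 38.4 and 30.4 kb. Of 10 Frizzled receptor genes, Fzd10 alone met a long domain, of 34.8 kb.

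The list of 24 neuronal genes had 4 members (16.7%) in long domains and 17 in shorter runs. They were Slc32a1, the vesicular GABA transporter, in 73.6 kb, Nefm, a neurofilament subunit, in 39.6 kb, Rbfox3, a splicing factor of neurons, in 36 kb, and Chat, the enzyme that makes acetylcholine, in 33.2 kb. Of 23 liver genes, 1 (4.35%) had an end in a long domain: Hnf4a, a liver and gut factor, in a domain of 30 kb that just met the chosen length, and 0 had both ends in one. Of 25 muscle genes it was Myh4, a fast muscle myosin (4.0%), and of 42 collagen genes Col5a3 and Col6a3 (4.76%). These lists were not tested against each other.

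Keratin genes, which encode the filaments of epithelia and hair, were a further group, with 13 of 109 (11.9%) in 5 domains. Krt35, Krt36, Krt13, Krt15 and Krt19 shared the 63.2 kb domain on chromosome 11, Krt27 and Krt28 one of 45.2 kb, Krt10 and Krt12 one of 39.2 kb, Krt82, Krt90 and Krt75 one of 37.8 kb on chromosome 15, and Krt39 lay in 30.8 kb. Genes in the same domain are not separate observations. These domains had few islands: 2 were state 11 alone, and the other 3 held 4.87%, 3.06% and 1.59% of states 9 and 10. Of 1452 olfactory and vomeronasal receptor genes, Olfr1337 alone (0.0689%) met a long domain, and 645 had an end in shorter runs.

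Each list of blood genes had 1 or 0 members with an end in a long domain. Of 33 HSC regulators and markers it was 1 (3.03%, beside 1.85% of all protein-coding genes). This was Hoxa10, whose start was in state 9 and whose far end was in state 5. The erythroid list had 0 of 30 and the list of neutrophil and monocyte genes 0 of 24. Of 19 B cell genes the 1 (5.26%) was Pax5. Of 23 T and NK cell genes the 1 (4.35%) was Bcl11b, a factor of T cell commitment, with its start in state 9 of a 41.2 kb domain. Ribosomal protein genes had 0 of 76, housekeeping genes 0 of 34 and Zfp zinc finger genes 0 of 386. Among 15 genes of marrow stroma and endothelium, Cxcl12, the chemokine that holds HSCs in the marrow, had both ends in a 58.0 kb domain (chr6:117124001-117182000). Cdkn2a and Cdkn2b, which encode inhibitors of cell division, shared a domain of 30.8 kb (chr4:89286001-89316800) of which states 9 and 10 made up 32.5%, with both starts in state 9. They were 2 of 7 listed CDK inhibitor genes (28.6%), both in the same domain. Except for the Zfp genes (0 of 386) and the olfactory and vomeronasal receptor genes (1 of 1452), lists with 1 or 0 genes are too small to be ranked against the 1.85% of all genes.

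The lists left out 230 of the 381 genes. They include further transcription factor genes, named here after their values were seen: Twist2 in 106.6 kb, Nr2f2 of veins and atria in 83.6 kb, Gata4 of the heart in 80.2 kb, Sall1 of the kidney in 64.8 kb, Tfap2a of the neural crest in 64.0 kb and Wt1 of the kidney in 36.2 kb. Others encode proteins of nerve cells, such as Crhr1, a receptor for corticotropin-releasing hormone, in 94.8 kb, and Drd2. The Cpz gene, for a carboxypeptidase, had an end in a 110.6 kb domain with 0.6 kb of state 10. C1qa, a complement gene of macrophages, had an end in the Epha8 domain, and Oas2, an interferon-induced gene, had an end in a 42.4 kb domain with Dtx1.

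The 10 domains with the highest share of states 9 and 10 were 30.2 to 55.6 kb long, beside a median of 39.0 kb over all long domains. Besides HoxB, HoxA and Dlx1 with Dlx2 they included those of Tbx15 (40.3%), Dmrta2 (37.7%), Cbx8, a Polycomb subunit gene (36.5%), and Zic2 with Zic5 (34.4%). The highest share, 66.0%, was in a 31.2 kb domain at Prss16, a thymus protease gene (chr13:21991801-22023000), with 5.8 kb of state 9 and 14.8 kb of state 10. The Cbx8 domain began directly at a state 4 segment.

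The 4 kinds of domain differed in composition. Domains with a listed factor had a median length of 43.6 kb and a median share of 13.3% in states 9 and 10, and 61 of 88 (69.3%) held state 9. Domains with other coding genes had medians of 39.3 kb and 5.66%, and 57.4% held state 9. Domains inside a coding gene had medians of 38.4 kb and 1.55%, with state 9 in 16.7%, and domains outside coding genes 37.4 kb and 1.31%, with state 9 in 8.33%. State 11 alone made up 1 of 88 factor domains and 49 of 132 domains outside coding genes. The kinds were defined by gene ends and state 9 was frequent at gene starts, and its part in the difference was not tested.

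**Figure D3:**
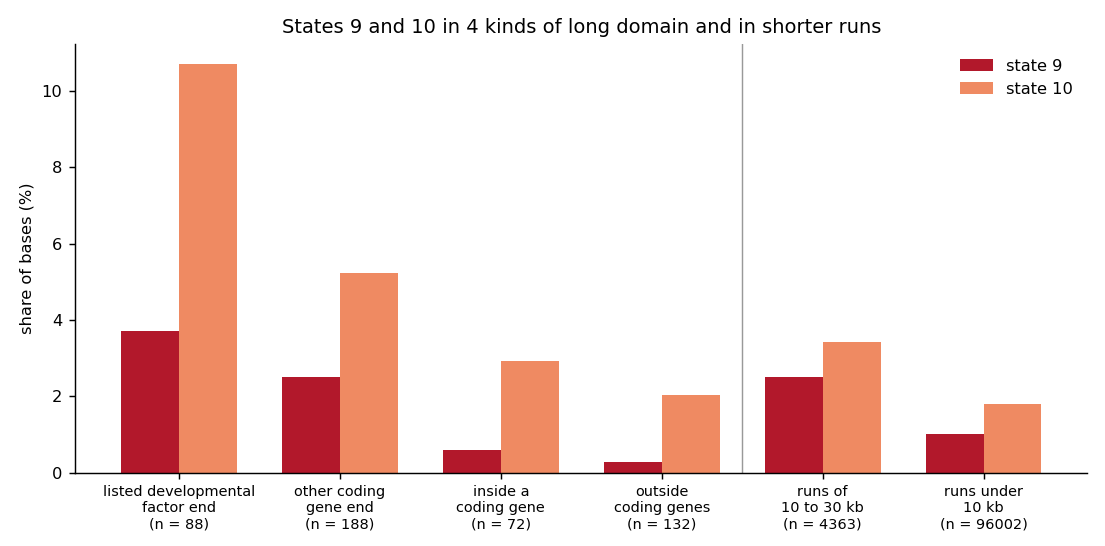
Share of bases in state 9 (dark red) and state 10 (orange), in percent on the y axis, for the 4 kinds of long domain and for shorter runs, with the number of domains or runs under each pair of bars. State 10 falls from 10.7% in domains with a listed factor to 2.03% in domains outside coding genes, and state 9 from 3.72% to 0.292%.

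Some of the longest domains met no end of a protein-coding gene. The longest of these, 152.4 kb at chr4:125218001-125370400, held 2.0 kb of state 10 and no state 9. It opened a group of 10 domains that filled 583.0 of 731.4 kb (79.7%) up to position 125949400, with no coding gene end in any of them. In that group, 2 domains, of 91.2 and 31.2 kb, lay inside Grik3, a glutamate receptor gene. None of the 10 held state 9. A domain of 109.8 kb on chromosome 8 (chr8:120838601-120948400) and the Mir9-3 domain (chr7:79482601-79585000) were the next longest. The domains inside a gene included one of 98.2 kb in Rbfox3, 84.0 kb in Eml1 and 79.4 kb in Asic2, an ion channel gene.

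Long noncoding RNA genes filled part of this space. Of 12324 autosomal lncRNA genes, 340 (2.76%) had an end in a long domain, a share above the 1.85% of protein-coding genes without a test of the difference. They met 64 of the 132 domains outside coding genes, and miRNA genes met 5. Several are named for the factor beside them. Hotair lay in the HoxC domain with both ends in state 10, Haglr in the HoxD domain and Hottip in the HoxA domain. Six3os1 and Paupar, the latter beside Pax6, lay in the domains of their neighbours, and Fendrr in that of Foxf1 with an end in state 9. The longer Sox1ot and Sox2ot each had 1 end in the domain of their neighbour. The other end of Sox1ot lay in the next long domain, of 56.2 kb, and that of Sox2ot in state 18. Mir9-3hg, the host of Mir9-3, had both ends in state 11 around the state 9 segment, and Tunar, a lncRNA of neural cells, had an end in state 9 of a 51.8 kb domain without coding gene ends. The gene table carries no strand, so ends of overlapping antisense genes cannot be told apart.

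Gene starts were found in state 9 more often than its share of bases. Of the 244 starts in long domains, 95 (38.9%) were in state 9, which made up 1.91% of domain bases, a ratio of 20.4. A further 135 (55.3%) were in state 11 and 14 (5.74%) in state 10. In runs below 30 kb, 42.6% of 2921 starts were in state 9, a ratio of 32.7 to its share of bases. Of 198 far ends of genes, 3 (1.52%) were in state 9, a ratio of 0.792, and 23 (11.6%) in state 10. The starts of listed factors were in state 9 for 36 of 80 genes (45.0%), in state 10 for 9 and in state 11 for 35.

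Not all state 9 segments sat at a protein-coding gene. Of the 280 in long domains, 129 (46.1%) held an end of one, 20 held an end of a noncoding gene only, and 131 (46.8%) held neither. In shorter runs 39.7% of 3056 segments held neither. Of the 1218 state 10 segments, 1115 (91.5%) held none, and with a median of 0.6 kb a segment has little room for one. Relative to its share of bases, state 10 in long domains held 1.1 times as many starts and 2.23 times as many far ends. For starts of listed factors the ratio was 2.16, from 9 of 80 starts. In runs below 30 kb these ratios were 1.25, 2.49 and 4.32, the last from 6 of 66 starts, so they were not particular to long domains. State 10 starts were found at Pax2, Hoxd3, Hoxd4, Hoxd8, Hoxb8, Otx2, Emx2 and Pax9 among others.

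Promoters in long domains had a higher median CpG ratio than those in shorter runs. The median ratio of observed to expected CpGs over 300 bases was 0.678 for the 244 starts in long domains, 0.487 for 2921 starts in shorter runs and 0.597 for all 16452 autosomal promoters with a ratio. Starts in states 3 to 6 had a median of 0.795 and starts in state 18 of 0.152. Starts in state 9 had similar medians in long domains (0.823) and shorter runs (0.753), with overlapping quartile ranges. The medians for starts in state 11 stood further apart, at 0.545 (135 starts) in long domains and 0.238 (1599) in shorter runs. Of these starts, 43.0% against 15.5% reached a ratio of 0.6. Their quartile ranges overlapped as well, 0.236 to 0.759 against 0.113 to 0.45. Listed factors were 35 of the 135 starts and 27 of the 1599, and their part in the difference was not tested. The Hoxd13 and Drd2 windows printed above belong to the CpG-rich part of the state 11 starts in long domains and the Krt13 window to the CpG-poor part. Listed factors in long domains had a median of 0.777 (80 promoters) and listed factors elsewhere 0.626 (98). The starts were not independent, since genes of a cluster share a domain, and no test was made.

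**Figure D4:**
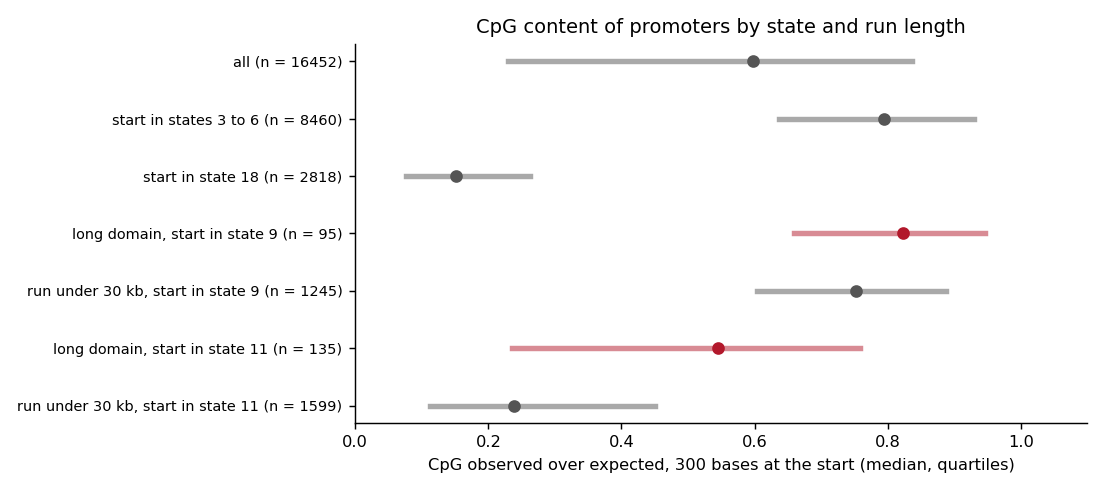
Ratio of observed to expected CpGs in 300 bases around gene starts (x axis) for 7 groups of promoters, with points at the median, bars from the lower to the upper quartile and the number of promoters in the labels. Starts in state 11 of long domains have a median of 0.545 and those in state 11 of shorter runs 0.238, while the medians for state 9 are 0.823 and 0.753.

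Short motifs were counted in the same windows on both strands, as letters only. The GC box GGGCGG occurred in 56.1% of promoters of long domains and 47.3% of all promoters, and CGCG in 60.7% and 50.8%. These 2 overlap in letters with CpG content and with each other. TATAAA occurred in 11.5% against 13.5% and CCAAT in 42.2% against 39.1%. Listed factors in long domains held CCAAT in 55.0% of 80 windows, and listed factors elsewhere in 50% of 98.

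The edges of the domains were mostly plain state 11 against state 18, the most widespread state of the map. Of 960 edges, 779 (81.1%) were flanked by state 18, 111 (11.6%) by state 14, 29 (3.02%) by state 16 and 12 (1.25%) by states 3 to 6. The runs below 30 kb were flanked by state 18 at 71.2% of edges and by state 14 at 21.2%. For the runs of 10 to 30 kb alone these shares were 85.7% and 8.6%, so flanking by state 18 was not particular to the long domains. The outer 2 kb of the domains held 0.667% state 9 and 2.89% state 10, against 2.03% and 5.42% inside. With each domain cut into 10 equal parts, state 9 ran from 0.603% in the first to 3.0% in the seventh and 0.965% in the last, and state 10 from 3.39% to 7.85% and 2.84%. The median distance to the nearest segment of states 3 to 6 was 97.0 kb. It was similar for factor domains (64.0 kb) and domains with other coding genes (67.1 kb). For domains inside a coding gene it was 156.4 kb and for domains outside coding genes 150.4 kb.

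Domains gathered in neighbourhoods. There were 208 domains (43.3%) within 100 kb of another, in 77 groups, and 30 gaps between domains were 1 kb or less. Around HoxC, 4 domains filled 335.8 of 367.8 kb (91.3%), around Pax2 4 filled 295.8 of 315.2 kb (93.8%), and around Sox1 4 filled 193.2 of 204.0 kb (94.7%). A group of 6 on chromosome 7 around Hmx3 and Hmx2 filled 234.6 of 332.0 kb (70.7%).

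Relative to their means, chromosomes differed more in long domains than in states 9 to 11 as a whole. The share of bases in states 9 to 11 was 14.7% ± 1.93 (SD, 19 autosomes), from 12.0 to 18%. The share in long domains was 0.891% ± 0.547 (SD, 19 autosomes), from 0.0751% on chromosome 16, with 2 domains, to 1.85% on chromosome 11, with 49. Chromosome 4 had the most, 55, while chromosomes 3 and 10 had 6 and 5. The spread is along the genome and not between animals.

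**Figure D5:**
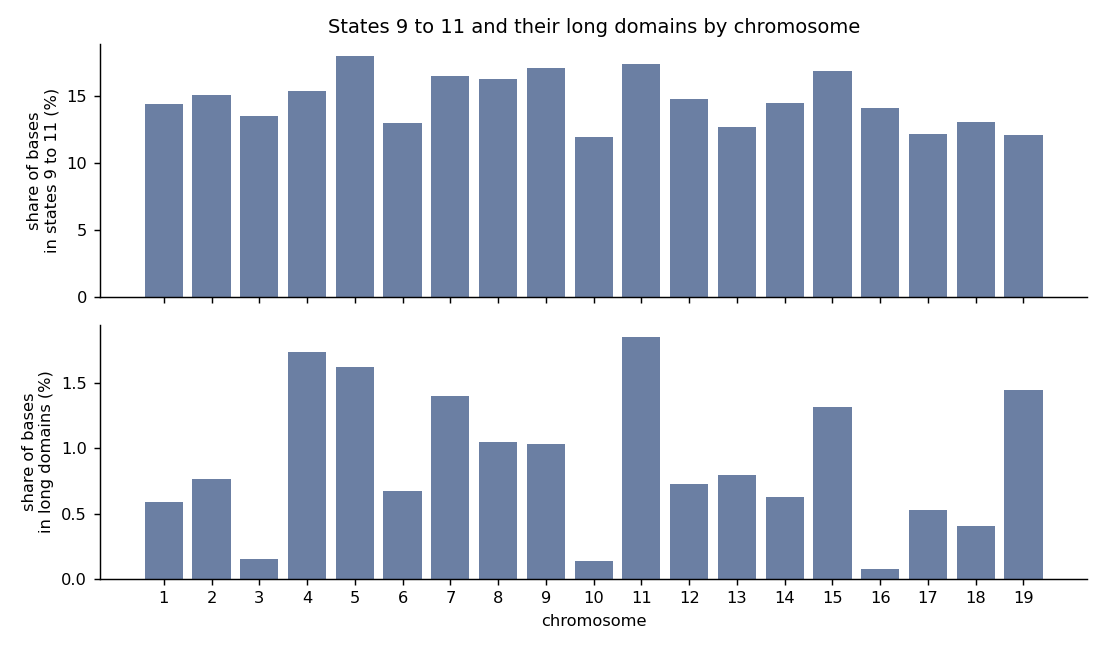
Share of bases in states 9 to 11 (upper panel, percent) and in long domains (lower panel, percent) for each of the 19 autosomes on the x axis. The upper bars run from 12.0 to 18% and the lower from 0.0751% on chromosome 16 to 1.85% on chromosome 11.

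The length threshold of 30 kb fell within a continuous range of lengths. The 8 runs at 29.8 kb, just below it, included those at Tmem132e, at Jph2 and at Fezf1 with Cadps2, the last with 7.8 kb of state 10. The 8 runs at 30 kb, just inside, included those at Col6a3, Irx1, Prrxl1, Olig2, Hnf4a and Pou2f3, of which the Olig2 domain held 7.6 kb of state 10. Chromosome X, which the choice left out, would have added 2 domains.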

How the data were processed

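Per the labels, the libraries were H3.3 ChIP and input of sorted HSCs. The submitters' processing notes list Bowtie2, deepTools, MACS2 and HOMER and the build mm10. The values analysed are the deposited state numbers (1 to 18) of a segmentation in 200 bp bins, a category with no scale, depth or score. The file headers name HSCs and an order of states by emission. The program version and input tracks were not given in the sources used here. The dense version was used, on 825324 autosomal segments.

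Touching segments of states 9 to 11 were joined, and runs of 30 kb or more were kept. Genes, promoters and miRNAs came from RefSeq (GRCm38.p6, the assembly of mm10). Of 20665 autosomal protein-coding genes, 105 placed in the unassembled first 3 Mb of a chromosome were left out. The promoter table matched 16457 of 20560 genes. No genome sequence was used. Members, 32 gene lists and named genes were chosen with earlier results of these data known. Named genes are those with ends in the 15 longest domains, the first 4 members of each list inside and the first 2 outside, the 10 domains richest in states 9 and 10, miRNAs of long domains and the runs at the threshold. Others, such as further list members, miRNA families and genes on no list, were chosen after their values were seen. A few genes within this rule are not reported here. The scripts (Python 3.11.15, pandas 2.3.3, numpy 2.4.6) were tested on simulated maps. Alternatives were other run lengths, bridged gaps, the expanded version, other states and other gene positions. No test was possible with 1 map, so no p-value is given.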

Additional observations from a re-analysis of the deposited data

How the results depend on the processing

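The number of domains followed the length chosen: 1159 at 20 kb or more, 480 at 30 kb and 123 at 50 kb. Bridging gaps of up to 400 bp gave 543 and up to 1000 bp gave 829, while the expanded version gave 480, states 10 and 11 alone 375 and adding chromosome X 482. At 20 kb, 50 kb, 400 bp and 1000 bp, in that order, the share of domain bases in state 9 was 2.07%, 1.7%, 1.83% and 1.49% (1.91% as reported), and in state 10 4.87%, 4.96%, 4.8% and 3.78% (5.2%). Of all protein-coding genes, 3.54%, 0.657%, 2.1% and 3.2% had an end in a domain (1.85%). That share was 1.06% when both ends were required, 1.42% by record midpoint and 1.48% by start. Of the listed developmental factors (43.5%), 57.7%, 20.4% and 51.2% had an end in a domain at 20 kb, 50 kb and 1000 bp, and from 38.5% to 45.0% under the other alternatives. Of 32 lists, 22 were above the share of all genes as reported and 12 under every alternative for which they had a value. Of the 10 lists not above it, 6 were not above it under any of them. The 22 include lists with 1 gene in a domain, such as Frizzled receptors (1 of 10). The 12 include marrow stroma and endothelium (1 of 15). Lists with 1 gene are too small to be ranked, so these counts describe the settings only. The cause of these shifts was not tested beyond the change of length or gap itself. With 1 map, no depth and no replicates, a run broken by 1 bin cannot be told from an unbroken one by its signal, and no spread between animals can be given. No paired analysis was possible because the results come from no test and the map carries no replicates.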
